A study of Rattus norvegicus with 30 samples.

Results

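This account covers the 5 arrays of primary rat hepatocytes exposed to 100 uM methapyrilene hydrochloride for 48 h, set against the 5 arrays of DMSO vehicle cultures of the same time. These 10 arrays are part of 30 that the study ran, 5 in each of 6 groups: 3 uM, 100 uM or vehicle, harvested at 24 or 48 h. The arrays were chosen by the dose, agent and time in their labels. The 3 uM cultures of 48 h and the 24 h cultures enter for comparison, in the signal filter and in the estimate of spread that all 6 groups share. All cells were purchased frozen hepatocytes of male Sprague Dawley rats, thawed, plated on collagen, overlaid with Matrigel and dosed on day 3 of culture. The vehicle is labelled as 1% DMSO, but the protocol gives that share for the concentrated dosing solutions, which leaves the final share in the medium unsettled. The 5 replicates of a group were separate wells described as independent cultures, and no animals are named, so well-to-well spread is all that the p-values measure.

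Methapyrilene is an antihistamine that blocks the H1 receptor and was withdrawn from sale because rats given it developed liver tumours. Hepatocytes, the main cells of the liver, make bile acids, clear drugs through cytochrome P450 and conjugating enzymes, break down amino acids, make urea and glucose, and secrete most plasma proteins. In culture they keep these functions only in part, and genes of these functions are commonly read as a measure of how differentiated the cells are. P450 enzymes of rat liver convert methapyrilene to reactive products, and mitochondria and periportal hepatocytes are known targets of its toxicity in rats.

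RNA was measured on a rat whole-genome array, which gives each probe set a linear signal, and log2 signals were compared. Of 31099 probe sets, those with 1 gene symbol and a signal above the array median on at least 5 arrays gave 10222 genes, each read by its brightest probe set. Throughout, signals are given as the 5 arrays of each group or as mean ± SD (n = 5 each), changes as log2 fold change of 100 uM over DMSO ± SE, and adjusted p-values come from limma with Benjamini-Hochberg adjustment over all 10222 genes. A gene is said to have risen or fallen where its adjusted p was under 0.05. With signals read from 1 probe set each, levels of different genes are not compared.

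The first principal component of all arrays held 25.3% of the variance and scored 19.6 to 24.9 in the 100 uM cultures of 48 h, against -15.4 to -11.7 in the DMSO cultures of 48 h. Replicate 3 of 100 uM stood apart: its mean correlation with its own group was 0.923, against 0.938 to 0.941 for the other 4. Median signals were 400 to 433 at 100 uM and 381 to 408 in DMSO, and the 3' to 5' ratio of the beta-actin control, which rises when RNA is shortened, was 2.48 to 3.43 at 100 uM and 2.44 to 2.79 in DMSO. Of the 3 uM arrays of 24 h, which enter the shared spread, replicates 1 to 3 stood apart from replicates 4 and 5. They scored -24.9 to -20.4 on the second component, against -5.2 and -1.4, with beta-actin ratios of 3.93 to 5.30, against 2.91 and 3.28. The cells of 100 uM and of DMSO at 48 h both read as hepatocytes by their markers. Alb, serum albumin, gave 78133 ± 7625 at 100 uM and 86647 ± 6374 in DMSO. Of the keratins of hepatocytes, Krt8 gave 71842 ± 2357 at 100 uM and 76859 ± 5551 in DMSO (adjusted p = 0.401) and Krt18 gave 63147 ± 1940.0 at 100 uM and 66740.0 ± 4606 in DMSO (adjusted p = 0.554). The 11 hepatocyte markers on the array summed to 542166 to 601130 at 100 uM and to 602536 to 708863 in DMSO, and 4 of the 11 fell. Of the markers of other liver cells on the array, 8 of 17 for Kupffer cells and leukocytes, 7 of 12 for sinusoidal endothelium, 5 of 14 for stellate cells and 5 of 11 for cholangiocytes lay below the array median on all 10 arrays, and the others, such as Lyz2, Csf1r, Kdr, Eng, Acta2, Col3a1 and Epcam, did not. Below it were Ptprc, Cd163 and Adgre1 of leukocytes and Kupffer cells, Pecam1, Stab1, Stab2 and Lyve1 of sinusoidal endothelium, Lrat and Pdgfrb of stellate cells, and Krt7 and Spp1 of cholangiocytes.

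After 48 h at 100 uM many messages for bile acid uptake and synthesis, drug and amino acid metabolism and complement were lower, and many for lysosomal proteins, DNA repair, cytosolic chaperones and ribosome assembly were higher, with hepcidin the largest increase described here. Limma called 3415 genes (33.4% of those tested), 1932 of them higher (18.9%) and 1483 lower (14.5%). At least 1.5-fold were 347 of the increases (3.39%) and 510 of the decreases (4.99%). At least 2-fold were 76 increases (0.743%) and 179 decreases (1.75%), so the larger changes were more often decreases. All 5 arrays of 100 uM lay above all 5 DMSO arrays for 1619 genes (15.8%) and below them for 1241 (12.1%). The median log2 fold change over all genes was 0.05, and with each array centred on its own median it was -0.0002 and the split turned to 1246 higher and 1545 lower. Increases made up 56.6% of the calls as scaled by the authors and 44.6% after that centring, so the balance of small changes depends on the scaling. Without replicate 3 of 100 uM, the 15 largest increases and 15 largest decreases (groups not overlapping, mean signal of at least 1000 in the higher group) were still all called. These genes were picked on the same arrays, which favours that outcome.

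**Figure D1:**
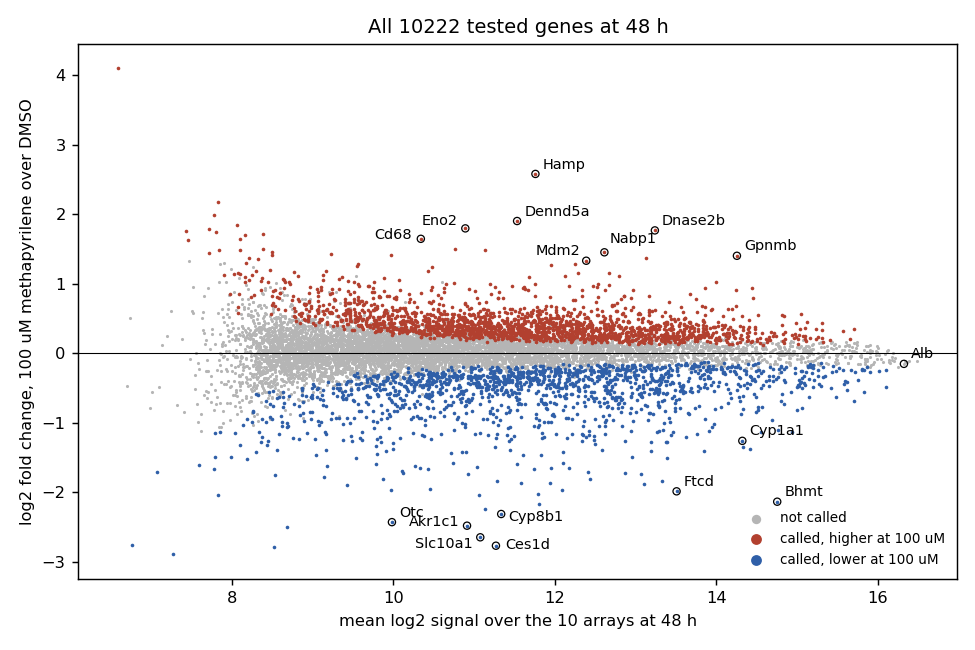
Each point is a gene, placed by its mean log2 signal over the 10 arrays of 48 h and by its log2 fold change, 100 uM over DMSO; red and blue points are the 1932 genes called higher and the 1483 called lower. Of the genes marked by name, Hamp stands highest at 2.58, Ces1d and Slc10a1 lie lowest at -2.77 and -2.65, and Alb, at the bright end, lies near 0 at -0.15.

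The first of the 15 largest increases was Hamp, which encodes hepcidin, the liver hormone that blocks iron release from gut and macrophages. Hamp had signals of 7108, 6457, 9201, 11027 and 9437 in the 100 uM cultures, against 1385, 1889, 1148, 1241 and 1544 in the DMSO cultures. The groups did not overlap, and the lowest treated array was over 3 times the highest vehicle array. The mean was 8646 ± 1855 at 100 uM and 1442 ± 292 in DMSO, a change of 2.58 ± 0.14 (adjusted p = 4.16e-16). Hepcidin transcription is driven by bone morphogenetic protein (BMP) signals through SMAD proteins, with hemojuvelin as a BMP co-receptor, and by interleukin 6 through STAT3. Transferrin receptor 2, an iron sensor, also takes part. The RefSeq promoter of rat Hamp (build GRCr8, chr1:95300272-95300521, minus strand) is shown because it holds 1 copy of the letters GGCGCC, the core of the BMP-responsive element known from the human and mouse genes, 129 bases before the start. The 250 bases before the start read as follows, with that copy in capitals.
Hamp: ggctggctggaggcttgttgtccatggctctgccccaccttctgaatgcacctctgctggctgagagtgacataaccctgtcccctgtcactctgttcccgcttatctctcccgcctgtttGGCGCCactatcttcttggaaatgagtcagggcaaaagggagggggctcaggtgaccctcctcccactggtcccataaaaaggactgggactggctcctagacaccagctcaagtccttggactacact
GGCGCC, which is its own reverse complement, occurs in 9.24% of all 27457 RefSeq rat promoters of this length and in 16.4% of those of the 8598 tested genes that have one, so its presence is a description of the sequence only.

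Most other genes of BMP signalling and iron did not rise. Among 27 tested, 3 rose and 10 fell, with a median of -0.05. Those that rose were Hamp, the activin receptor Acvr2a (0.49 ± 0.08, adjusted p = 7.48e-06) and Smad5 (0.50 ± 0.11), which carries BMP signals to the nucleus and whose other probe sets gave 0.36 ± 0.59 and -0.30 ± 0.13 and were not called. Hjv, which encodes hemojuvelin, gave 8119.8 ± 380.5 at 100 uM and 11953 ± 763 in DMSO (-0.56 ± 0.065, adjusted p = 2.26e-08), and Tfr2, transferrin receptor 2, fell by 1.62-fold (-0.69 ± 0.098). Atoh8, a BMP-induced factor of hepatocytes, gave 908 ± 174 at 100 uM and 1549 ± 141 in DMSO (-0.79 ± 0.15, adjusted p = 5.97e-05). Id1, a standard BMP target in hepatocytes, had signals of 994, 1086, 642, 964 and 1271 at 100 uM, against 749.9, 889.7, 859, 573 and 711 in DMSO. Its groups overlapped and its change of 0.37 ± 0.17 did not pass (adjusted p = 0.0979), although it passed without replicate 3 of 100 uM (0.52, adjusted p = 0.0167) and with array weights (0.42, adjusted p = 0.022).

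Lysosomal genes made up a second group of increases. Lysosomes are the acid compartments that break down material brought in by endocytosis and autophagy, and basic amphiphilic drugs are known to accumulate in them. Of 53 tested lysosome genes, 25 rose and 4 fell, with a median of 0.21 against 0.05 over all genes. Dnase2b, an acid nuclease, had signals of 16675, 18343, 17982, 17941 and 18381 in the 100 uM cultures, against 5224, 5238, 5509, 4639.6 and 5680.2 in the DMSO cultures. The groups were far apart, with little spread within either (1.77 ± 0.097, adjusted p = 3.93e-16). Cd68, a glycoprotein of late endosomes and lysosomes, had signals of 2015, 2043, 2419.7, 2489 and 2573 in the 100 uM cultures, against 679, 726, 920.1, 655 and 716 in the DMSO cultures. All treated arrays were above 2000 and all vehicle arrays below 1000 (1.65 ± 0.12, adjusted p = 7.1e-13). Gpnmb, a membrane glycoprotein that is often raised when lysosomes are under stress, had signals of 30742, 32909.9, 30829, 32133 and 32539.9 in the 100 uM cultures, against 12996, 13515, 11941, 10956 and 10997 in the DMSO cultures. The groups did not overlap (1.40 ± 0.099, adjusted p = 2.23e-13).

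Further lysosomal members rose by smaller amounts. Cd63, a tetraspanin of lysosomal and exosomal membranes, gave 26662 ± 1268 at 100 uM and 14134 ± 624 in DMSO (0.92 ± 0.074, adjusted p = 6.03e-12). Atp6v1c1, a subunit of the proton pump that acidifies lysosomes, changed by 0.91 ± 0.058 (adjusted p = 2.16e-14), and Npc2, which carries cholesterol out of lysosomes, by 0.63 ± 0.051 (adjusted p = 6.03e-12). Rragd, a Rag GTPase that brings mTORC1 to the lysosome, had signals of 2860.5, 3016, 2744, 3245 and 2789.6 in the 100 uM cultures, against 1029.9, 1096, 971, 1079 and 1008 in the DMSO cultures, with no overlap between the groups (1.5 ± 0.12, adjusted p = 1.65e-12). The 4 members that fell were the proteases Ctsc and Ctsh, the phosphatase Acp2 and the glucuronidase Gusb, at -0.36, -0.17, -0.30 and -0.28. With arrays centred on their medians 18 rose and 3 fell, and Ctsh was no longer called. Of 30 autophagy genes 8 rose (26.7%, against 18.9% of all genes) and 2 fell (6.67%, against 14.5%), among them Gabarapl1 (0.35 ± 0.046) and Wipi2 (0.51 ± 0.083), both parts of autophagosome formation, on the side of the increases. The decreases were the kinase Ulk1, which starts autophagy (-0.34 ± 0.11) and was not called without replicate 1 of 100 uM or of DMSO (adjusted p = 0.0594 and adjusted p = 0.0524), and Atg10 (-0.21 ± 0.081), whose call was lost under 11 of 21 alternatives.

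Cd68 and Gpnmb are also known from macrophages, so the markers of Kupffer cells, the macrophages of liver, are given beside them. Of 18 such markers 17 were on the array, and 8 of these lay below the array median on all 10 arrays. Their summed signal was 13884 to 18533 at 100 uM and 21088 to 23657 in DMSO, lower at 100 uM with no overlap. Without Cd14 and Lyz2 the other 15 summed to 3683 to 5481 at 100 uM and 3337 to 4449 in DMSO, with overlap, so the lower sum came from these 2 genes. Cd14, an endotoxin co-receptor that hepatocytes also express, had signals of 4944, 6212, 4143, 4874 and 5475 in the 100 uM cultures, against 10696, 9224, 9558, 11286 and 11952 in the DMSO cultures (-1.05 ± 0.096, adjusted p = 1.05e-10). Of the 12 Kupffer markers tested, Cd14 and the lysozyme gene Lyz2 (-0.21 ± 0.08) fell and Cd5l (0.58 ± 0.23) and Fcer1g (0.41 ± 0.15) rose, and the last 3 calls were each lost under quantile normalization (adjusted p = 0.0546 to 0.0739). Summed markers of sinusoidal endothelium were 3931 to 4602 at 100 uM and 3204 to 3713 in DMSO, and those of stellate cells 5045 to 6096 at 100 uM and 4873 to 5610 in DMSO. Esam of endothelium (1.18 ± 0.40) and Des of stellate cells (0.58 ± 0.21) rose from dim signals, but the Esam call was lost without replicate 4 of DMSO (adjusted p = 0.0512) and the Des call when any of 6 single arrays was left out (adjusted p = 0.0523 to 0.102). Whether such cells had a part in these results was not tested.

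The lysosome group is shown with the promoter of Cd63 because factors of the TFEB family drive lysosomal genes through an extended form of the E-box, and its promoter holds 1 E-box, CACGTG, at 190 bases before the start (GRCr8, chr7:1921894-1922143, plus strand). That copy is in capitals.
Cd63: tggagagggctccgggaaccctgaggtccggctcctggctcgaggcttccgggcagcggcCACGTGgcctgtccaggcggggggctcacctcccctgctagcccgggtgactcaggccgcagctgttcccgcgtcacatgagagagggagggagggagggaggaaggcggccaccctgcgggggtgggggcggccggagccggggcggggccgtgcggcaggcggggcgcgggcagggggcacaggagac
Of 43 lysosome genes with a RefSeq promoter, 9 hold CACGTG (20.9%), against 8.57% of the tested genes and 5.79% of all promoters. Among genes called at least 1.5-fold higher the share was 9.51%, and among those at least 1.5-fold lower 5.54%. The letters are their own reverse complement and are bound by many factors.

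Genes of the p53 pathway rose in part. The protein p53 is a transcription factor that DNA damage and other stresses stabilise, and MDM2, itself made from a p53 target gene, marks it for destruction. Of 28 tested p53 targets, 13 rose (46.4%, against 18.9% of all genes) and 2 fell (7.14%, against 14.5%), with a median of 0.22. After median centring 10 of them rose, while increases over all genes went from 1932 to 1246. Mdm2 had signals of 8819, 8329, 8466, 8669 and 8309 in the 100 uM cultures, against 3509.6, 3453, 3501, 3488 and 2998 in the DMSO cultures. The 2 groups were tight and separate (1.33 ± 0.06, adjusted p = 6.51e-18), and a dimmer probe set, also called, gave 0.75 ± 0.065. Sfn, the 14-3-3 sigma protein that holds cells before mitosis, gave 6226 ± 695 at 100 uM and 2567 ± 241 in DMSO (1.28 ± 0.098, adjusted p = 1.71e-12). Aen, an exonuclease of apoptotic cells, changed by 0.97 ± 0.068 (adjusted p = 1.56e-13), and Gdf15, a stress-induced secreted factor, by 1.08 ± 0.17 (adjusted p = 3.94e-06).

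Cdkn1a, which encodes the p21 inhibitor of the cell cycle and is the best known p53 target, did not follow Mdm2 on its brightest probe set. Its signals were 5231, 5126, 5477, 5772 and 5972 in the 100 uM cultures, against 4293, 4895, 4565, 5419.9 and 4806 in the DMSO cultures. The groups overlapped, and the change of 0.20 ± 0.091 did not pass (adjusted p = 0.0864). A second, dimmer probe set of Cdkn1a gave 0.95 ± 0.14, and the mean of the 2 passed at 0.58 (adjusted p = 2.98e-07). The brightest probe set alone passed with array weights (adjusted p = 0.0187), in a fit of the 10 arrays alone (adjusted p = 0.021) and without replicate 4 of DMSO (adjusted p = 0.0461), so the size of its change is uncertain. The 2 members that fell were Dcxr, a xylulose reductase of liver (-1.42 ± 0.12, adjusted p = 8.99e-12), and Sesn1 (-0.52 ± 0.10). Of 33 apoptosis regulators 8 rose (24.2%, against 18.9% of all genes) and 1 fell (3.03%, against 14.5%). Birc2 (0.47 ± 0.085) and Bcl2l1 (0.47 ± 0.10), both inhibitors of apoptosis, were among the increases, and the mitochondrial flavoprotein Aifm1 (-0.23 ± 0.055) was the decrease. That count of increases was 3 after median centring and 5 without replicate 3 of 100 uM, so it is not a firm one.

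DNA repair and replication genes rose alongside. None of 35 tested repair genes fell and 14 rose (40.0%, against 18.9% of all genes), with a median of 0.23. After median centring 9 rose, and under quantile normalization 2 fell. Nabp1, a subunit of a single-stranded DNA binding complex, had signals of 9775, 10719, 10486, 10419.5 and 10528 in the 100 uM cultures, against 4305, 3828, 3879.5, 3741 and 3283 in the DMSO cultures. All treated arrays were more than 2 times the brightest vehicle array (1.45 ± 0.075, adjusted p = 9.05e-17). Mgmt, which removes alkyl groups from guanine, gave 14126 ± 354 at 100 uM and 8509 ± 341 in DMSO (0.73 ± 0.056, adjusted p = 1.8e-12). Rad18, a ubiquitin ligase of damage bypass, and Lig1, the ligase of the lagging strand, changed by 0.89 ± 0.14 and 0.85 ± 0.16.

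Of 47 cell cycle and replication genes, 16 rose (34.0%, against 18.9% of all genes) and 4 fell (8.51%, against 14.5%). Cks2, a small partner of cyclin-dependent kinases, gave 4896 ± 273 at 100 uM and 2455 ± 182 in DMSO (1.00 ± 0.078, adjusted p = 2.52e-12). Prim1, the catalytic primase subunit, changed by 0.83 ± 0.066, Stmn1, which destabilises microtubules, by 1.01 ± 0.12, and Pcna, the replication clamp, by 0.50 ± 0.062. Arhgap11a had signals of 1239, 913, 614, 1149 and 1174 at 100 uM, against 294, 332, 604, 377 and 301 in DMSO. It was among the 15 largest increases, though 1 vehicle array lay just below the lowest treated one (1.43 ± 0.24, adjusted p = 1.95e-05). The decreases were Tk1, thymidine kinase (-0.68 ± 0.093, adjusted p = 4.03e-07), the cyclin Ccnd1 (-0.40 ± 0.12), and the replication protein genes Rpa1 (-0.19 ± 0.067) and Rpa3 (-0.23 ± 0.084). The calls of Ccnd1, Rpa1 and Rpa3 were each lost when a single array was left out, and without replicate 3 of 100 uM 2 genes of this list fell. In nucleotide synthesis, thymidylate synthase Tyms (0.81 ± 0.12) and CTP synthase Ctps1 (0.79 ± 0.12) rose. Tk1, Adss1 (-0.60 ± 0.10) and, of folate metabolism, Mthfd1 (-0.43 ± 0.064), Shmt1 (-0.22 ± 0.07) and Shmt2 (-0.32 ± 0.077) fell. Of 31 genes of that list 10 rose (32.3%, against 18.9% of all genes) and 5 fell (16.1%, near the 14.5% of all genes).

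Many genes of cytosolic chaperones, ribosome assembly, translation initiation and the proteasome rose by small amounts. Of 33 genes of heat shock and cytosolic chaperones, 22 rose and 0 fell, with a median of 0.25. Chordc1, a partner of HSP90, gave 8624 ± 174 at 100 uM and 5676 ± 248 in DMSO (0.60 ± 0.052, adjusted p = 2.42e-11). Hspb8, a small heat shock protein, changed by 0.41 ± 0.047, and Cct2 and Cct4, subunits of the chaperonin that folds actin and tubulin, by 0.45 ± 0.054 and 0.50 ± 0.067. Hsph1, the large heat shock protein that exchanges nucleotide on HSP70, had signals of 4001, 3587, 3480.3, 4481 and 4196 in the 100 uM cultures, against 2791, 2334, 2448, 2962 and 2129 in the DMSO cultures, with no overlap (0.64 ± 0.12, adjusted p = 7.74e-05). A second, dimmer probe set of Hsph1 gave 0.12 ± 0.18 and did not pass.

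The promoter of Hsph1 (GRCr8, chr12:10427118-10427367, plus strand) is shown because it is the only promoter among 29 of the chaperone genes that holds the heat shock element searched, which is TTC, GAA and TTC in a row with any 2 bases between neighbours, on either strand. The match, in capitals, begins 36 bases before the start.
Hsph1: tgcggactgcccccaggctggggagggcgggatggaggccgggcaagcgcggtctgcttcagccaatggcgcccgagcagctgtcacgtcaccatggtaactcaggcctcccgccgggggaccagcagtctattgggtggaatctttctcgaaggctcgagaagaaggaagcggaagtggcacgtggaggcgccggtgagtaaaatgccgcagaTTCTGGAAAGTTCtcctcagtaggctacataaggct
Of all promoters 0.597% hold this element, and of tested genes 0.384%.

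Of 56 genes of ribosome biogenesis, 31 rose and 0 fell, with a median of 0.25. These genes act in the nucleolus on ribosomal RNA and early subunits. Mrto4 gave 5549.5 ± 254 at 100 uM and 3574 ± 149.5 in DMSO (0.63 ± 0.068, adjusted p = 3.82e-09), and Nhp2, Wdr12 and Nop56 changed by 0.60 ± 0.075, 0.62 ± 0.08 and 0.42 ± 0.055. Translation factors followed, with 23 of 40 higher and 0 lower. Among them were Eif3f (0.37 ± 0.046), Eif2s1, the alpha subunit of the factor that brings the initiator tRNA (0.40 ± 0.054), and Eif4b (0.57 ± 0.079). Proteasome subunits rose in 22 of 46 cases, with Psmc6 (0.41 ± 0.053) and Psma5 (0.37 ± 0.062) as examples. The other probe sets of Psmc6 gave 0.19 ± 0.11 and 0.03 ± 0.099 and did not pass. The regulator Psme1 alone fell (-0.31 ± 0.061), a call lost when its probe sets were averaged (adjusted p = 0.413). Splicing and nuclear RNA binding genes rose in 18 of 45 cases and fell in 3, with Snrpf (0.59 ± 0.066) and Hnrnpa1 (0.44 ± 0.056) higher and Srsf4 (-0.64 ± 0.091), Clk1 (-0.23 ± 0.058) and Hnrnph1 (-0.20 ± 0.053) lower.

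Several of these counts depend on the scaling. After median centring the increases numbered 14 for chaperones, 23 for ribosome biogenesis, 13 for translation factors, 10 for the proteasome and 10 for splicing. The medians of these 5 lists stayed above 0 under that centring and under quantile normalization. Mitochondrial ribosomal proteins were less firm, with 18 of 68 higher as scaled by the authors (Mrps18a 0.43 ± 0.06) and 4 after centring, while Mrps21 fell (-0.53 ± 0.094). Cytosolic ribosomal proteins rose in 7 of 40 cases, near the 18.9% of all genes, but in 3 after centring and 30 under quantile normalization. Rpl14 (0.34 ± 0.066) and Rpl23 (0.35 ± 0.078) were the members named by adjusted p. Cytosolic aminoacyl-tRNA synthetases rose in 8 of 21 cases (3 after centring), with Sars1 higher (0.51 ± 0.086) and Mars1 lower (-0.35 ± 0.055).

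**Figure D2:**
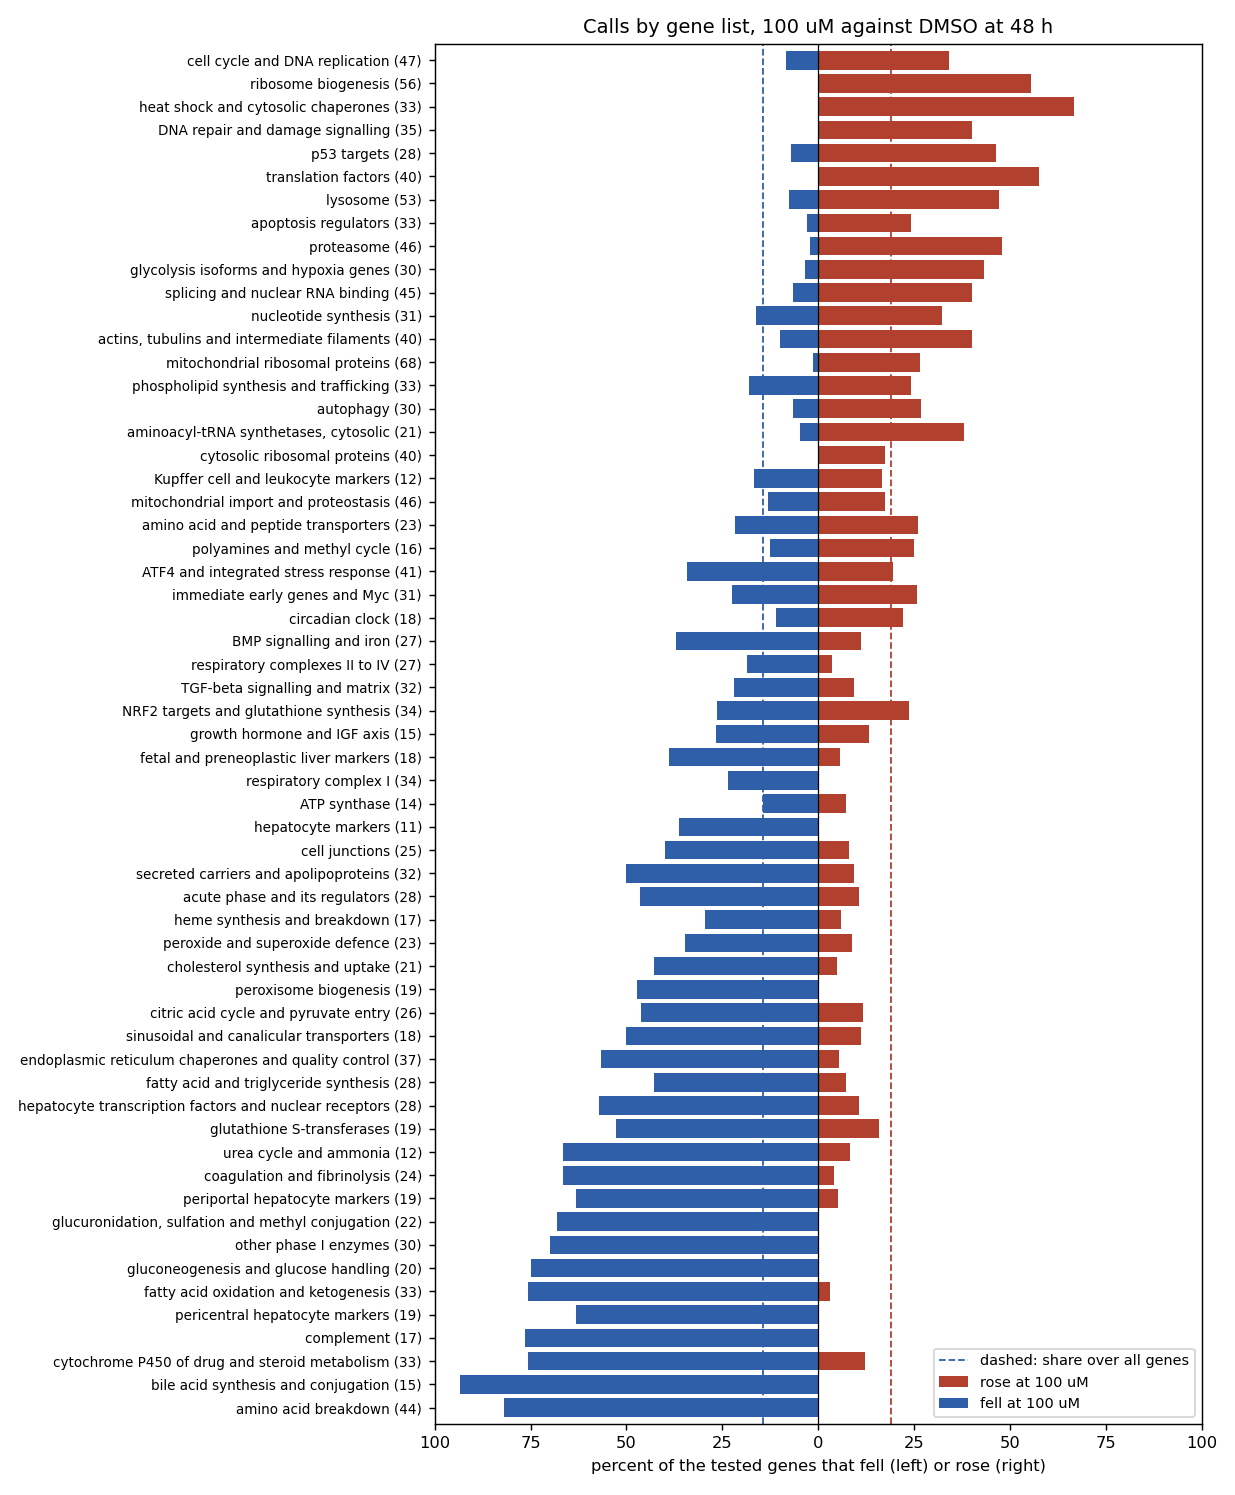
Bars give, for each gene list with at least 10 tested genes (number in brackets), the percent that fell at 100 uM to the left and the percent that rose to the right, ordered by the list's median log2 fold change; dashed lines mark 14.5% and 18.9%, the shares over all genes. Bile acid synthesis fell in 14 of 15 genes, and chaperones, ribosome biogenesis and translation factors rose in 22, 31 and 23 genes with 0 decreases.

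Stress genes of the endoplasmic reticulum and of amino acid shortage split. Stress kinases that phosphorylate eIF2 alpha raise the factors ATF4 and CHOP, and unfolded protein in the endoplasmic reticulum raises its chaperones through ATF6 and XBP1. Ddit3, which encodes CHOP, had signals of 6009.5, 7196, 6365, 6599.5 and 6751 in the 100 uM cultures, against 2901, 3346, 2937, 2829.9 and 3209.9 in the DMSO cultures. The lowest treated array was well above the highest vehicle array (1.11 ± 0.072, adjusted p = 3.14e-14). Ppp1r15a, which reverses the phosphorylation of eIF2 alpha, changed by 0.72 ± 0.12 (adjusted p = 7.93e-06), Atf3 by 0.56 ± 0.082, and Slc3a2, the heavy chain of amino acid exchangers, by 0.48 ± 0.048. The message of Atf4 itself was near level, with a change of 0.02 ± 0.071 that turned to -0.03 after median centring (adjusted p = 0.888 as scaled by the authors). Cth, which makes cysteine from cystathionine, fell (-1.13 ± 0.076, adjusted p = 7.83e-14). Over the 41 genes of the list, 8 rose (19.5%, near the 18.9% of all genes) and 14 fell (34.1%, against 14.5%).

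Chaperones of the endoplasmic reticulum were lower. Of 37 such genes, 21 fell and 2 rose, with a median of -0.24. Hspa5, the HSP70 of this compartment known as BiP, had signals of 36325, 37708, 34852, 37028 and 34531 in the 100 uM cultures, against 44122, 46062, 38886, 42161 and 42243 in the DMSO cultures, with no overlap (-0.24 ± 0.062, adjusted p = 0.00233). P4hb, protein disulfide isomerase, gave 28301 ± 843 at 100 uM and 38879 ± 2177 in DMSO (-0.46 ± 0.048, adjusted p = 2.03e-09). Hsp90b1 changed by -0.50 ± 0.055, Herpud1 by -0.53 ± 0.049 and Edem2, which sorts misfolded glycoproteins for degradation, by -0.61 ± 0.076. The increases were the co-chaperones Dnajc3 (0.20 ± 0.051) and Sdf2l1 (0.29 ± 0.086), and both calls were lost after median centring.

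Targets of NRF2, the factor that answers oxidants and electrophiles, also split. Of 34 tested, 8 rose (23.5%, against 18.9% of all genes) and 9 fell (26.5%, against 14.5%). Gpx2, a glutathione peroxidase, gave 19745 ± 1110.0 at 100 uM and 12637 ± 824 in DMSO (0.64 ± 0.082, adjusted p = 1.29e-07). Hmox1, heme oxygenase, had signals of 35022, 39032, 34995, 33016 and 35346 in the 100 uM cultures, against 30450.0, 30422, 30519.8, 27858 and 30763 in the DMSO cultures, all treated arrays above all vehicle arrays by a small margin (0.24 ± 0.068, adjusted p = 0.00558), and its call was lost after median centring (adjusted p = 0.113). The glutathione transferases Gsta3 (-0.61 ± 0.053) and Gsta4 (-0.71 ± 0.081) fell. Among immediate early genes and their partners, Fosl1 rose (1.00 ± 0.15, adjusted p = 2.55e-06) and Jun fell (-0.45 ± 0.063, adjusted p = 7.74e-07). Of 31 such genes 8 rose (25.8%) and 7 fell (22.6%), against 18.9% and 14.5% of all genes.

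Genes of glycolysis and of the hypoxia response rose in 13 of 30 cases and fell in 1. Eno2, the enolase isoform of neurons, had signals of 3433, 4059, 2747, 3858 and 3779 in the 100 uM cultures, against 908, 1245, 1179, 726 and 1143 in the DMSO cultures. All treated arrays were more than 2 times the brightest vehicle array (1.80 ± 0.17, adjusted p = 1.13e-10). Ndrg1 and Hilpda, both known targets of hypoxia-inducible factor, changed by 0.83 ± 0.11 and 0.82 ± 0.11, and Slc2a1, the GLUT1 glucose transporter, by 0.63 ± 0.11. The decrease was Ero1a (-0.31 ± 0.11), whose call was lost without replicate 3 of 100 uM (adjusted p = 0.0551).

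The other large increases fell outside these groups. Dennd5a, a Rab GTPase exchange factor of endosomal transport, had signals of 5208, 6024, 4976, 6084 and 6520.1 in the 100 uM cultures, against 1574, 1729, 1519, 1318 and 1561 in the DMSO cultures, with no overlap (1.90 ± 0.11, adjusted p = 5.38e-16). Sdcbp2, a PDZ protein also called syntenin-2, gave 14434 ± 708 at 100 uM and 5587 ± 288 in DMSO (1.37 ± 0.11, adjusted p = 2.86e-12). Npy, known as a neuropeptide, had signals of 6383, 5794, 8329.6, 8832 and 9462 in the 100 uM cultures, against 2813, 4014, 2938, 2553 and 3564 in the DMSO cultures. Its treated arrays were all above its vehicle arrays but spread widely (1.28 ± 0.18, adjusted p = 1e-06). Il1r2, the decoy receptor of interleukin 1, gave 3864 ± 939 at 100 uM and 1363 ± 250.1 in DMSO (1.49 ± 0.18, adjusted p = 3.03e-08). 2810025M15Rikl (1.41 ± 0.20) completed the 15 with Grm8 (1.29 ± 0.45, adjusted p = 0.0263), a glutamate receptor gene whose dim vehicle arrays ranged from 136 to 808 and whose call was lost without replicate 1 of 100 uM (adjusted p = 0.0554) or replicate 4 of DMSO (0.83, adjusted p = 0.141).

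**Figure D3:**
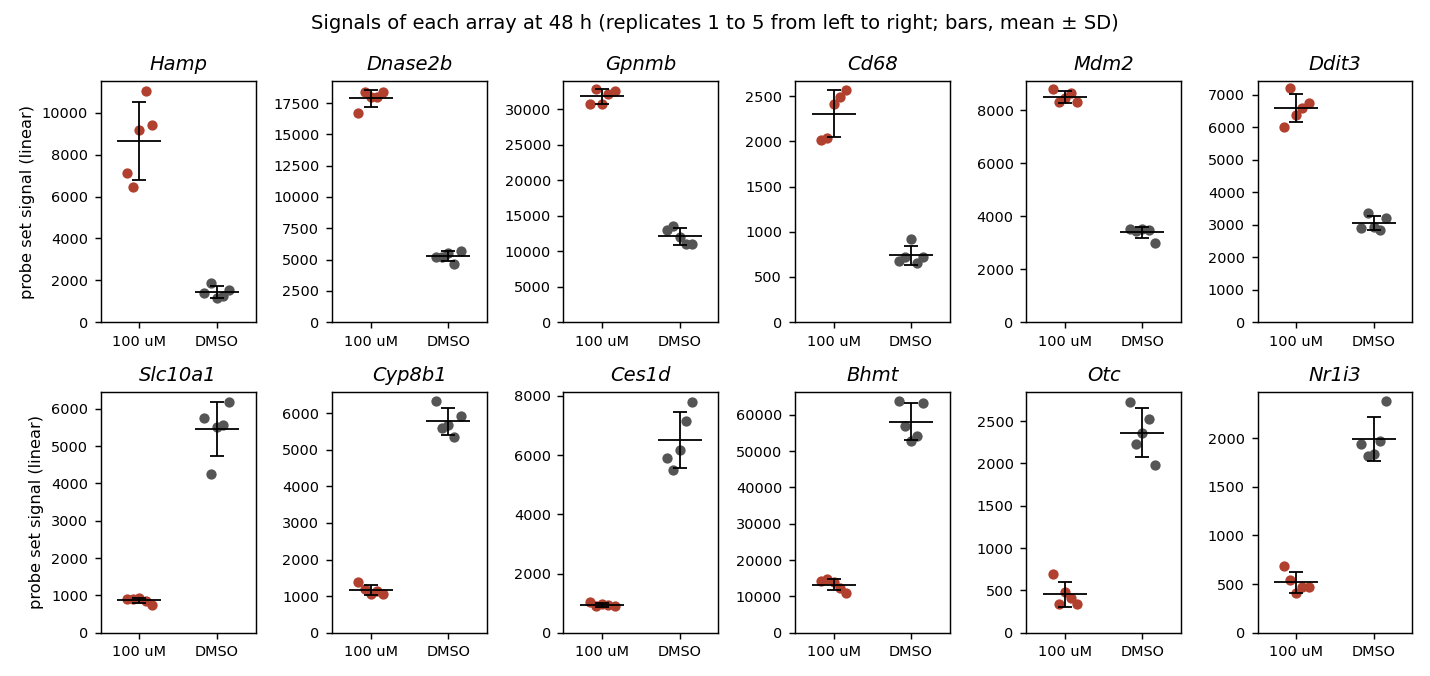
Panels show the probe set signal of every array at 48 h on a linear axis from 0, the 5 cultures of 100 uM left of the 5 of DMSO, with mean ± SD as bars. The upper row holds 6 genes that rose and the lower row 6 that fell; in no panel do the groups overlap.

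Bile acid handling was among the groups that fell. Hepatocytes take bile salts up from blood through Slc10a1, make them from cholesterol through Cyp7a1 and Cyp8b1, conjugate them through Slc27a5 and Baat, and export them into bile through Abcb11. Slc10a1 had signals of 895, 909, 939.7, 846 and 743 in the 100 uM cultures, against 5743, 4244, 5514, 5563 and 6183 in the DMSO cultures. The brightest treated array was far below the dimmest vehicle array (-2.65 ± 0.13, adjusted p = 3.11e-17). Cyp8b1, the sterol 12-alpha-hydroxylase needed for cholic acid, had signals of 1393, 1195, 1047, 1149.5 and 1055 in the 100 uM cultures, against 6321, 5586, 5683, 5343 and 5936 in the DMSO cultures. It had the lowest adjusted p of the genes named here (-2.31 ± 0.087, adjusted p = 4.66e-20). Of 15 genes of bile acid synthesis and conjugation, 14 fell and 0 rose, with a median of -0.84 against 0.05 over all genes.

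Slc27a5, the bile acid CoA ligase, gave 1614 ± 162 at 100 uM and 5909.5 ± 727 in DMSO (-1.87 ± 0.095, adjusted p = 7.04e-17), and Baat, which joins bile acids to taurine or glycine, gave 2662 ± 485 at 100 uM and 8223 ± 764 in DMSO (-1.64 ± 0.16, adjusted p = 7.3e-10). Cyp7a1, the rate-limiting enzyme, was dim at 381 ± 33 at 100 uM and 789 ± 176 in DMSO and fell too (-1.03 ± 0.25, adjusted p = 0.00149). Slc27a2, a fatty acid and bile acid ligase, changed by -0.85 ± 0.065. Of 18 hepatocyte transporters 9 fell, among them the organic anion carrier Slco1b2 (-1.28 ± 0.14) and the bile salt pump Abcb11 (-0.66 ± 0.081, adjusted p = 6.39e-08). Abcc2, the pump for conjugates on the bile side, went the other way at 41471 ± 1801 at 100 uM and 28010.0 ± 1476 in DMSO (0.57 ± 0.063, adjusted p = 6.95e-09), as did Abcc4 (0.40 ± 0.15), whose call was lost in 10 of 21 alternative analyses. In bulk RNA, fewer hepatocytes and less RNA of a gene per hepatocyte cannot be told apart.

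The promoter of Baat (GRCr8, chr5:68656138-68656387, minus strand) is shown because it is the only promoter among 12 of the bile acid synthesis and conjugation genes that holds CAAAGTCCA. This motif is bound by HNF4A, the nuclear receptor that maintains hepatocyte genes. The copy, in capitals, begins 90 bases before the start.
Baat: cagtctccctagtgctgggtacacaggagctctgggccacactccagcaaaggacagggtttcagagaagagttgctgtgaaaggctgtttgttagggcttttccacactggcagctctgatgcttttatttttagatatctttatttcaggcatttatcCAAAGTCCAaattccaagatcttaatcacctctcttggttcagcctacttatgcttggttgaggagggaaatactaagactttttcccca
On either strand the motif occurs in 0.331% of all promoters, in 5 of the 415 promoters of genes called at least 1.5-fold lower (1.20%) and in 0 of 305 of those at least 1.5-fold higher. The message of Hnf4a did not pass, with signals of 6909.9, 6575, 7034, 7033 and 6159 in the 100 uM cultures, against 7433, 7002, 6466, 7088 and 6491 in the DMSO cultures, overlapping groups and a change of -0.03 ± 0.08 (adjusted p = 0.801).

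Drug-metabolising enzymes fell as a group. Of 33 P450 genes and their partners, 25 fell and 4 rose, with a median of -0.72. Cyp2a1, a testosterone 7-alpha-hydroxylase of rat liver, had signals of 1881, 1775, 1494, 1772 and 1548 in the 100 uM cultures, against 7460.4, 6890.1, 7438, 8634 and 7690.0 in the DMSO cultures, with no overlap (-2.17 ± 0.10, adjusted p = 1.35e-17). Cyp2d2 gave 4741 ± 178 at 100 uM and 13375 ± 558 in DMSO (-1.5 ± 0.064, adjusted p = 1.73e-18), Cyp4f4 changed by -1.65 ± 0.10, and Cyp1a1, the classical target of the aryl hydrocarbon receptor, by -1.26 ± 0.08. The 4 that rose were Cyp3a9 (0.62 ± 0.11), Cyp2c13 (0.51 ± 0.09), Cyp3a2 (0.51 ± 0.11) and Cyb5b (0.24 ± 0.074), and the direction of Cyb5b turned when its probe sets were averaged (-0.08). P450 genes of 1 subfamily are similar in sequence, and a probe set can take up RNA of a close relative.

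Of 30 other phase I enzymes 21 fell and 0 rose. Ces1d, a carboxylesterase that cleaves esters of drugs and triglycerides, had signals of 1045, 897, 963, 955 and 889.6 in the 100 uM cultures, against 5915, 5491, 6170.1, 7166 and 7792 in the DMSO cultures. It was the first of the 15 largest decreases (-2.77 ± 0.14, adjusted p = 4.31e-17). Aadac, arylacetamide deacetylase, gave 1044 ± 186 at 100 uM and 4897 ± 402 in DMSO (-2.25 ± 0.12, adjusted p = 8.26e-17), and Pon3, a lactonase carried on HDL, changed by -1.25 ± 0.074. Akr1c1, an aldo-keto reductase, gave 822 ± 97.4 at 100 uM and 4578 ± 485 in DMSO (-2.48 ± 0.12, adjusted p = 7.04e-17), and Dpys, a dihydropyrimidinase of pyrimidine breakdown, gave 1061 ± 159 at 100 uM and 4361 ± 623 in DMSO (-2.04 ± 0.097).

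Many conjugating enzymes fell, and 3 of them rose. Of 22 genes of glucuronidation, sulfation and methylation, 15 fell and 0 rose, and Sult2a6 (-2.50 ± 0.22, adjusted p = 5.16e-11), Sult1b1 (-0.63 ± 0.079), the nicotinamide methyltransferase Nnmt (-0.62 ± 0.057) and the arsenic methyltransferase As3mt (-0.62 ± 0.062) were among them. Of 19 glutathione S-transferases 10 fell, led by Gstt3 (1332 ± 171 at 100 uM and 4759 ± 373 in DMSO, -1.84 ± 0.093), Gstm7 (-1.62 ± 0.12) and Gstz1 (-0.99 ± 0.099), and Gsto1 (0.30 ± 0.047), Gstk1 (0.26 ± 0.059) and Gstm5 (0.23 ± 0.066) rose. The calls of Gstk1 and Gstm5 were lost after median centring (adjusted p = 0.0561 and adjusted p = 0.159). Gstp1, the placental form used as a marker of altered liver foci, gave 38792 ± 1803 at 100 uM and 40435 ± 2286 in DMSO and did not pass (-0.06 ± 0.079, adjusted p = 0.618).

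Amino acid breakdown showed the lowest median of the lists with at least 10 tested genes. Of 44 such genes 36 fell and 0 rose, with a median of -0.87. Bhmt, which remethylates homocysteine with betaine, had signals of 14278, 14821, 13920.1, 12339.7 and 11008 in the 100 uM cultures, against 63699, 56876, 52775, 54060.1 and 63157 in the DMSO cultures. The brightest treated array was far below the dimmest vehicle array (-2.13 ± 0.11, adjusted p = 7.04e-17). Ftcd of histidine breakdown gave 5909 ± 877 at 100 uM and 23310.0 ± 2613 in DMSO (-1.98 ± 0.10), Hgd of tyrosine breakdown changed by -1.96 ± 0.11, and Fah, the last enzyme of the same route, by -1.16 ± 0.059. Aldh6a1 of valine breakdown gave 6877 ± 449 at 100 uM and 16669 ± 698 in DMSO (-1.28 ± 0.052, adjusted p = 3.88e-19), and Agxt2, a mitochondrial aminotransferase, changed by -1.16 ± 0.059.

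In the urea cycle, Otc, ornithine transcarbamylase of mitochondria, had signals of 698, 335, 479, 409 and 345 in the 100 uM cultures, against 2726, 2224, 2356, 2531 and 1978 in the DMSO cultures. No treated array came near the vehicle arrays (-2.43 ± 0.18, adjusted p = 6.8e-13). On their brightest probe sets the other steps named here moved less. Cps1, carbamoyl phosphate synthetase, gave 48396 ± 2976 at 100 uM and 63213 ± 5086 in DMSO (-0.38 ± 0.081, adjusted p = 0.000326), but a dimmer probe set of it gave -1.07 ± 0.092 and was called too. Arg1, arginase, changed by -0.68 ± 0.075, and Slc25a13, the aspartate carrier, by -0.47 ± 0.058. Asl, argininosuccinate lyase, was the 1 member of 12 that rose (0.29 ± 0.06, adjusted p = 0.000286), against 8 that fell. Car5a, the mitochondrial carbonic anhydrase that supplies bicarbonate to this cycle, gave 1782 ± 283 at 100 uM and 7219.6 ± 698 in DMSO (-2.03 ± 0.11, adjusted p = 1.21e-16).

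Fatty acid oxidation fell in 25 of 33 genes and rose in 1, with a median of -0.55. Fabp1, the fatty acid binding protein of liver, had signals of 2158, 1939, 2781, 2015 and 2194 in the 100 uM cultures, against 9477, 7858, 8683, 8732 and 8189.6 in the DMSO cultures, with no overlap (-1.96 ± 0.099, adjusted p = 7.04e-17). Cyp4a1, the omega-hydroxylase that PPAR alpha induces, gave 2982 ± 322 at 100 uM and 10412 ± 767 in DMSO (-1.81 ± 0.092), and Acaa2, the last thiolase of mitochondrial oxidation, changed by -0.81 ± 0.076. Acsm3, a medium-chain ligase, changed by -1.90 ± 0.19. The increase was Pdk4 (0.33 ± 0.086), which slows pyruvate oxidation and whose call was lost when its probe sets were averaged (adjusted p = 0.0664). Of 19 genes of peroxisome biogenesis 9 fell and 0 rose, led by the membrane channel Pxmp2 (3788 ± 236 at 100 uM and 9961 ± 1037 in DMSO, -1.39 ± 0.082).

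Fat and cholesterol synthesis fell in part. Of 28 genes of fatty acid and triglyceride synthesis 12 fell, among them ATP citrate lyase Acly (-0.80 ± 0.073), acetyl-CoA carboxylase Acaca (-0.79 ± 0.076), Thrsp (-0.96 ± 0.10) and the desaturase Scd (-0.47 ± 0.058). Gpam (0.51 ± 0.091) and Dgat2 (0.17 ± 0.059), both of triglyceride synthesis, rose, but Dgat2 was not called after median centring (adjusted p = 0.335). Of 21 cholesterol genes 9 fell, with Hsd17b7 (-0.86 ± 0.091) and Pmvk (-0.37 ± 0.066) as examples. A second probe set of Hsd17b7 gave -0.04 ± 0.090 and did not pass. Cyp51 rose (0.27 ± 0.079), but not after median centring (adjusted p = 0.0963). In phospholipid synthesis, Pemt, which makes phosphatidylcholine by methylation in liver, gave 533 ± 168 at 100 uM and 1545 ± 130.2 in DMSO (-1.59 ± 0.21, adjusted p = 3.53e-07).

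Glucose handling fell in 15 of 20 genes and rose in 0. Pc, pyruvate carboxylase, gave 1202 ± 146 at 100 uM and 3730.2 ± 219 in DMSO (-1.64 ± 0.10, adjusted p = 1.24e-14), Slc37a4, the glucose 6-phosphate carrier, changed by -1.12 ± 0.07, Khk, the fructokinase, by -1.15 ± 0.078, and Pklr, the pyruvate kinase of liver, by -1.27 ± 0.10. A dimmer probe set of Pklr, also called, gave -4.48 ± 0.40, so the size of its change is uncertain. In the citric acid cycle and pyruvate entry 12 of 26 genes fell, with Idh2 (-0.69 ± 0.064) and Idh3g (-0.58 ± 0.072) among them. The increases were Me2, a mitochondrial malic enzyme, at 2088 ± 253 at 100 uM and 958 ± 296 in DMSO (1.18 ± 0.18, adjusted p = 2.82e-06), Pdhx (0.39 ± 0.10) and Pdk4.

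Mitochondria are a known target of methapyrilene in rat liver, and the nuclear genes of the respiratory chain moved by small amounts. In complex I 8 of 34 genes fell (23.5%, against 14.5% of all genes) and 0 rose, with a median of -0.08. Ndufs3 (-0.28 ± 0.07) and Ndufv3 (-0.29 ± 0.08) were among the decreases. In complexes II to IV 5 of 27 fell (18.5%, near the 14.5% of all genes) and 1 rose. Sdha (-0.24 ± 0.049), Sdhd (-0.26 ± 0.063), Cyc1 (-0.19 ± 0.07), Uqcrc1 (-0.14 ± 0.052) and Uqcrc2 (-0.15 ± 0.053) fell, the last 3 with calls lost under 6 or 7 of 21 alternatives, and the copper chaperone Cox17 was the increase (0.36 ± 0.065). In ATP synthase Atp5f1a (-0.24 ± 0.064) and Atp5f1b (-0.20 ± 0.048) fell, 2 of 14 genes and so again near the share of all genes, and the inhibitory factor Atp5if1 rose (0.36 ± 0.067), though not when its probe sets were averaged (adjusted p = 0.0594). Tomm70, an import receptor of the outer membrane, rose (0.41 ± 0.069), but another probe set gave 0.12 ± 0.075 and did not pass. The import list it belongs to split into 8 increases and 6 decreases among 46 genes, near the shares of all genes. Otc, a mitochondrial enzyme described above, stood at -2.43 beside -0.14 to -0.29 for the respiratory chain subunits named as lower.

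Secreted proteins fell unevenly. Of 17 complement genes 13 fell and 0 rose, with a median of -0.67. C5 gave 1031 ± 143 at 100 uM and 2772 ± 192 in DMSO (-1.44 ± 0.11, adjusted p = 1.05e-12), C4bpa, a complement regulator, 3325 ± 116 at 100 uM and 8019.6 ± 696 in DMSO (-1.27 ± 0.087), and C8b and the lectin Mbl2 changed by -0.75 ± 0.06 and -1.13 ± 0.092. Of 24 coagulation genes 16 fell, among them F9 (-0.80 ± 0.058), F10 (-0.86 ± 0.076) and Serpinf2, the plasmin inhibitor (-1.19 ± 0.089), while Plaur, the urokinase receptor, rose (0.92 ± 0.24, adjusted p = 0.00324). Of 32 carriers and apolipoproteins 16 fell. Hrg, histidine-rich glycoprotein, had signals of 6871, 6769, 6314, 6017 and 5801 in the 100 uM cultures, against 19294, 16195, 17425, 18890.3 and 18698 in the DMSO cultures, with no overlap (-1.51 ± 0.077, adjusted p = 7.37e-17), and Lcat (-1.18 ± 0.075), Apoc4 (-0.97 ± 0.063) and Apoc2 (-0.69 ± 0.05), all of lipoprotein metabolism, fell too.

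Bright signals of secreted proteins differed among themselves. Apob, the main protein of very low density lipoprotein, changed by -0.79 ± 0.089 (adjusted p = 1.11e-08), with 0.29 ± 0.20 on another probe set. Apoh, a phospholipid-binding plasma protein, changed by -0.24 ± 0.087 (adjusted p = 0.0351), a call lost under 10 of 21 alternatives. Alb had signals of 87001, 75162, 82481, 79084 and 66939 at 100 uM, against 88322, 85918, 82895, 79647 and 96451 in DMSO, with overlapping groups and a change of -0.15 ± 0.13 (adjusted p = 0.399), and Ttr, transthyretin, changed by -0.11 ± 0.10 (adjusted p = 0.472). These are among the brightest signals on the array, and the deposited values do not mark saturated probes. Serpina6 (0.88 ± 0.14), which carries corticosteroids, Apoa2 (0.28 ± 0.07) and Apoa5 (0.20 ± 0.061) rose, the last not after median centring (adjusted p = 0.175). Of 28 acute phase genes 13 fell. Steap4, a metalloreductase induced by inflammation, gave 4636 ± 559.5 at 100 uM and 17135 ± 3230.0 in DMSO (-1.88 ± 0.12, adjusted p = 2.16e-14), and Crp, C-reactive protein, 9125 ± 1262 at 100 uM and 23935 ± 1351 in DMSO (-1.40 ± 0.12, adjusted p = 1.62e-11). Il1r2, described above, rose with the kinase Jak2 (0.86 ± 0.28) and with Agt (0.27 ± 0.081). The call of Jak2 was lost without replicate 2 of DMSO (adjusted p = 0.0566) and that of Agt after median centring (adjusted p = 0.0613).

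Transcription factors and receptors of hepatocytes fell in 16 of 28 cases and rose in 3. Nr1i3, the nuclear receptor CAR that induces drug metabolism, had signals of 691, 539.8, 411, 468 and 474 in the 100 uM cultures, against 1942, 1820.2, 1832, 1967 and 2378 in the DMSO cultures, with no overlap (-1.96 ± 0.16, adjusted p = 1.29e-11). Onecut2 (-0.94 ± 0.09), Cebpa (-0.58 ± 0.09), Klf15 (-0.58 ± 0.089) and Nr1h3, the oxysterol receptor LXR alpha (-0.47 ± 0.065), fell by less. Of 3 other probe sets of Cebpa, 1 was called too (-0.80), and -0.26 and -0.34 on the others did not pass. Onecut1 (0.63 ± 0.16), Esrra (0.48 ± 0.14) and Rora (0.63 ± 0.098) rose, with Rora not called when its probe sets were averaged (adjusted p = 0.692). In the growth hormone axis Igf1 gave 28954 ± 481 at 100 uM and 40807 ± 2319 in DMSO (-0.49 ± 0.079, adjusted p = 6.02e-06), and its 2 other probe sets, both called, gave -1.21 and -1.11. The receptor Ghr changed by -0.46 ± 0.064. Egfr fell on its brightest probe set (-0.70 ± 0.065) but was at 0.39 ± 0.16 on another, so its direction is uncertain. Igfbp2, a binding protein for these factors, rose from dim and overlapping signals (1.84 ± 0.41, adjusted p = 0.000563).

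Markers of both ends of the liver lobule were lower. Hepatocytes near the portal vein favour urea and glucose production, and those near the central vein favour drug metabolism. Of 19 periportal markers 12 fell and 1, Asl, rose, with a median of -0.37. Of 19 pericentral markers 12 fell and 0 rose, with a median of -0.61. Periportal Hsd17b13 (-1.28 ± 0.13), Cyp2f4 (-0.97 ± 0.072) and Fbp1 (-0.95 ± 0.091) and pericentral Cyp1a2 (-1.30 ± 0.096) and Cyp2e1 (-0.86 ± 0.13) were among the decreases. Glul, glutamine synthetase of the cells next to the central vein, had signals of 7726, 8898, 7366, 7397 and 7414 at 100 uM, against 8401, 7998, 7988, 8360.1 and 8184 in DMSO and did not pass (-0.08 ± 0.072, adjusted p = 0.428), although the average of its probe sets did (-0.16, adjusted p = 0.0238).

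Among genes of cell contacts, decreases were more frequent than increases. Of 25 junction genes 10 fell and 2 rose. Gjb1, the connexin 32 of hepatocyte gap junctions, gave 6859 ± 362 at 100 uM and 12449 ± 1340.0 in DMSO (-0.85 ± 0.079, adjusted p = 1.26e-10), and the cadherins Cdh2 (-0.71 ± 0.072) and Cdh1 (-0.61 ± 0.079) and the tight junction protein F11r (-0.43 ± 0.071) fell. The increases were the adherens junction protein Ctnna1 (0.24 ± 0.063), not called after median centring, and the desmosome protein Dsp (0.26 ± 0.054). In the list of TGF-beta signalling and matrix 7 of 32 fell (21.9%, against 14.5% of all genes) and 3 rose, with a median of -0.05. Of those that fell, Lox, which cross-links collagen, gave 7416 ± 524 at 100 uM and 16862 ± 2125 in DMSO (-1.18 ± 0.13), Inhbe, an inhibin chain made by liver, changed by -1.24 ± 0.075, and Tgfbi, a matrix protein induced by TGF-beta, by -0.76 ± 0.06. Cytoskeletal genes rose in 16 of 40 cases (40.0%, against 18.9% of all genes), and in 10 after median centring. S100a6 (0.94 ± 0.11) and Tubb6 (0.42 ± 0.066) were higher. Vim (-0.55 ± 0.092), Tmsb4x (-0.28 ± 0.082), Krt19 and Tubb2a (-0.14 ± 0.051, lost under 10 alternatives) were lower. Lmna was higher on its brightest probe set (0.52 ± 0.083) but at -0.10 ± 0.14 on another.

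Fetal and tumour-associated liver markers did not rise as a group, with 1 of 18 higher and 7 lower. Afp, alpha-fetoprotein, changed by -0.14 ± 0.083 (adjusted p = 0.199), Sox4 by -1.08 ± 0.14, and Krt19, a keratin of bile duct and progenitor cells with dim signals, by -1.49 ± 0.44. The increase was Anxa5, an annexin (0.45 ± 0.10, adjusted p = 0.000606). Enzymes that break down histamine and other amines fell in 5 of 7 cases, the aldehyde dehydrogenases Aldh7a1 (-0.78 ± 0.053), Aldh2 (-0.43 ± 0.059) and Aldh9a1 (-0.51 ± 0.074) and the monoamine oxidases Maoa (-0.37 ± 0.068) and Maob (-0.70 ± 0.07). Azin1, which spares ornithine decarboxylase of polyamine synthesis, rose on its brightest probe set (0.56 ± 0.06) and gave 0.09 ± 0.097 on another.

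At 48 h, 3 uM methapyrilene left most of these genes near the vehicle. The 3 uM and 100 uM groups were compared with the same 5 DMSO arrays, so their changes are given side by side and not as separate evidence. Limma called 4 genes between 3 uM and DMSO (0.0391% of those tested). Cyp1a2 was at -0.69 ± 0.096 (adjusted p = 0.00036) at 3 uM and at -1.30 ± 0.096 at 100 uM, and Cyp1a1 was at -0.42 ± 0.08 (adjusted p = 0.0308) at 3 uM and at -1.26 ± 0.08 at 100 uM. Rrp9, of ribosome biogenesis, was at 0.82 ± 0.14 at 3 uM and at 0.91 ± 0.14 at 100 uM, and Ift52, of cilia, at 0.49 ± 0.094 at 3 uM and at 0.43 ± 0.094 at 100 uM. None of the 30 largest changes of 100 uM was called at 3 uM, where they lay between -0.46 and 0.47. Between 100 uM and 3 uM at 48 h, limma called 2945 genes (28.8%), among them 29 of those 30, such as Hamp (2.27 ± 0.14, adjusted p = 1.57e-14), Mdm2 (1.22 ± 0.06) and Slc10a1 (-2.18 ± 0.13). Those 30 were picked by the same 100 uM arrays, which favours a call in that comparison, so the 29 describe them only.

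At 24 h, limma called 3647 genes between 100 uM and DMSO (35.7%), and 29 of the same 30 genes were among them, the exception being Npy. Npy was at 1.28 ± 0.18 at 48 h and 0.11 ± 0.18 at 24 h, and the difference of the effects was 1.18 ± 0.26 (adjusted p = 0.0112). The 30 genes were picked by their size at 48 h, which favours a larger value at that time, so the tests of the difference describe them and do not stand for a general trend. Over all genes, 169 effects differed between the times (1.65%), 63 of them upward (0.616%) and 106 downward (1.04%) at 48 h. The count was 58 with arrays centred on their medians and 261 with array weights. Hamp was at 2.58 ± 0.14 at 48 h and 1.24 ± 0.14 at 24 h (difference 1.34 ± 0.20, adjusted p = 0.000113), and Cd68 at 1.65 ± 0.12 at 48 h and 0.86 ± 0.12 at 24 h (difference 0.78 ± 0.17, adjusted p = 0.0111). Ces1d was at -2.77 ± 0.14 at 48 h and -1.25 ± 0.14 at 24 h (difference -1.52 ± 0.19, adjusted p = 7.59e-06), and Otc at -2.43 ± 0.18 at 48 h and -0.90 ± 0.18 at 24 h (difference -1.53 ± 0.25, adjusted p = 0.000491). For Mdm2, Ddit3, Gpnmb, Cyp8b1 and Bhmt the difference did not pass, with 0.05 ± 0.085, 0.04 ± 0.10, -0.12 ± 0.14, -0.19 ± 0.12 and 0.34 ± 0.15 and adjusted p-values from 0.379 to 0.936. Cyp1a1 was less reduced at 48 h, at -1.26 ± 0.08 against -1.86 ± 0.08 at 24 h (difference 0.60 ± 0.11, adjusted p = 0.00223), while Cyp1a2 was more reduced (difference -0.62 ± 0.14, adjusted p = 0.0112).

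**Figure D4:**
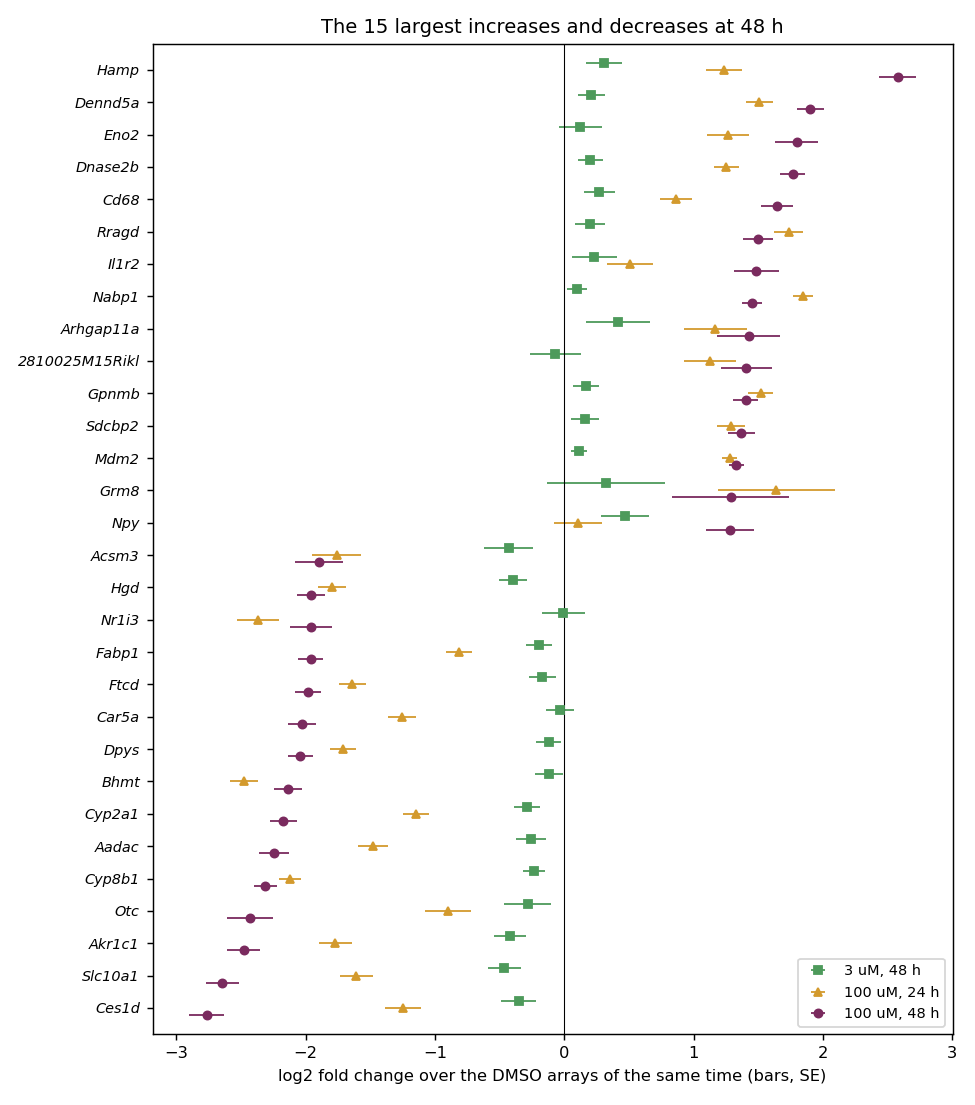
For the 15 largest increases and 15 largest decreases at 48 h, points give the log2 fold change over the DMSO arrays of the same time with SE bars, squares for 3 uM at 48 h, triangles for 100 uM at 24 h and circles for 100 uM at 48 h. The 3 uM points lie between -0.46 and 0.47, and the 24 h and 48 h points lie close together for Mdm2, Gpnmb and Cyp8b1 and apart for Hamp, Ces1d and Otc.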

How the data were processed

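RNA of each well was hybridised to a rat expression array of 31099 probe sets. Per the submitters' processing notes the authors summarised the arrays with MAS5 (version not given in the sources used here), and the deposited values are linear signal intensities, scaled by the authors so that each array's mean, without its highest and lowest 2% of probe sets, is close to 1501. Probe set symbols came from GEO's platform annotation: 20826 probe sets had 1 symbol, 436 several and 9780 none. From the deposited intensities, log2 values were taken, probe sets above the array median on at least 5 of 30 arrays were kept (17555), and the brightest per gene was used (10222 genes). limma 3.58.1 in R 4.3.3 fitted 1 mean per group over all 30 arrays (24 residual degrees of freedom) with an intensity trend and Benjamini-Hochberg adjustment at 0.05; summaries used Python 3.11.15. Members and 63 gene lists were chosen with earlier results of these data known. Named were the 15 largest increases and decreases whose groups did not overlap and whose higher mean was at least 1000, up to 4 called members of a list by adjusted p, and its defining genes. Members that moved against their list, and promoters, were chosen after their values were seen. Tested on simulated data for this comparison (200 of 10222 genes changed), the fit recovered 69% of 1.5-fold and 88% of 2-fold changes, with 0 wrong signs and 10 false calls. That simulation changed far fewer genes than the 3415 called here, so it does not measure the false calls among them. Alternatives were other scalings, filters, pseudocount (16), probe set means, variance models, fewer arrays and a threshold of 0.01. Others took sets of 6 consecutive array numbers or the beta-actin ratio as terms, or left out 1 culture at a time. List counts under other scalings were chosen after seeing the data. Precision is limited by 5 arrays a group. Promoters are from RefSeq, build GRCr8, searched over the 250 bases before the start.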

Additional observations from a re-analysis of the deposited data

Results flagged for a closer look

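In 32 of 604 groups of 5 values examined (5.30%), the highest or lowest array lay further from the other 4 than Dixon's test allows at the 95% level, and chance alone gives about 1 in 20.

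In 100 uM replicate 1, Aifm1 was at 7515, against 7058 to 7176 in the other 4 and Dnase2b was at 16675, against 17941 to 18381 in the other 4. In 100 uM replicate 2, Ccnd1 was at 628, against 846 to 904 in the other 4 and Glul was at 8898, against 7366 to 7726 in the other 4. In the same culture, Krt8 was at 75918, against 70204 to 71764 in the other 4 and Nnmt was at 4356, against 3887 to 4011 in the other 4. Pmvk was at 7012, against 5618 to 5954 in the other 4 and Rad18 was at 997, against 1176 to 1234 in the other 4. Sars1 was at 7357, against 6206 to 6465 in the other 4 and Slco1b2 was at 425, against 615 to 684 in the other 4. Dnajc3 was at 18254, against 17059 to 17302 in the other 4 and Slc38a3 was at 1729, against 2585 to 2843 in the other 4. In 100 uM replicate 3, Des was at 502, against 769.7 to 847 in the other 4 and Idh2 was at 7629, against 8135 to 8312 in the other 4. In the same culture, Aldh9a1 was at 8429, against 6459 to 6940.2 in the other 4. For the Gapdh control, 3' over 5' signal was 1.02 in 100 uM replicate 2, against 1.06 to 1.07 in the other 4. Replicate 3 of 100 uM had a mean correlation of 0.923 with its own group, against 0.938 to 0.941 in the other 4.

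In DMSO replicate 1, Chordc1 was at 5246, against 5726 to 5871 in the other 4 and Herpud1 was at 16110.5, against 14053 to 14372 in the other 4. In the same culture, Sars1 was at 5343, against 4244 to 4542 in the other 4. In DMSO replicate 2, Igfbp2 was at 375, against 87 to 153 in the other 4. In DMSO replicate 3, Arhgap11a was at 604, against 294 to 377 in the other 4 and Cd68 was at 920.1, against 655 to 726 in the other 4. In DMSO replicate 4, Hmox1 was at 27858, against 30422 to 30763 in the other 4 and Sgms1 was at 1651, against 1801 to 1816 in the other 4. In DMSO replicate 5, Atf3 was at 2598, against 3008 to 3115 in the other 4 and Cyp1a1 was at 35272, against 29929 to 31343 in the other 4. In the same culture, Cyp1a2 was at 10527, against 8361 to 8966 in the other 4 and Mdm2 was at 2998, against 3453 to 3509.6 in the other 4. Nr1i3 was at 2378, against 1820.2 to 1967 in the other 4 and Wipi2 was at 2844, against 3314 to 3494 in the other 4. The median signal of DMSO replicate 1 was 381, against 402 to 408 in the other 4.

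Of the 298 genes named, 40 had an effect of 100 uM over DMSO that differed between 48 h and 24 h. Limma's test of the difference was adjusted over all 10222 genes, of which it called 169 (1.65%). The difference, 48 h minus 24 h on the log2 scale, was above 0 for Hamp (1.34, adjusted p = 0.000113), Npy (1.18, adjusted p = 0.0112), Il1r2 (0.98, adjusted p = 0.0342) and Cd68 (0.78, adjusted p = 0.0111). It was also above 0 for Cyp1a1 (0.60, adjusted p = 0.00223), Dnase2b (0.51, adjusted p = 0.0437) and Eif3f (0.27, adjusted p = 0.0259). It was below 0 for Otc (-1.53, adjusted p = 0.000491), Ces1d (-1.52, adjusted p = 7.59e-06), Pemt (-1.22, adjusted p = 0.0293), Fabp1 (-1.15, adjusted p = 5.85e-06) and Slc10a1 (-1.04, adjusted p = 0.000914). Smaller differences below 0 were those of Cyp2a1 (-1.03, adjusted p = 3.4e-05), Slc27a5 (-0.87, adjusted p = 0.000189), Hrg (-0.87, adjusted p = 7.59e-06), Car5a (-0.77, adjusted p = 0.00311) and Aadac (-0.77, adjusted p = 0.009). Next in size came Pon3 (-0.75, adjusted p = 3.4e-05), Crp (-0.74, adjusted p = 0.0132), Gstt3 (-0.73, adjusted p = 0.00144), Cyp2d2 (-0.72, adjusted p = 7.59e-06) and Akr1c1 (-0.71, adjusted p = 0.0275). The list went on with Pxmp2 (-0.71, adjusted p = 0.000445), Cyp1a2 (-0.62, adjusted p = 0.0112), Apoc4 (-0.61, adjusted p = 8.59e-05), Khk (-0.50, adjusted p = 0.0106) and C4bpa (-0.50, adjusted p = 0.0261). Still smaller were Cyp4a1 (-0.50, adjusted p = 0.0409), Lcat (-0.50, adjusted p = 0.009), Cyp51 (-0.49, adjusted p = 0.0142), C8b (-0.47, adjusted p = 0.00144) and F9 (-0.45, adjusted p = 0.00144). Smaller again were those of Rpa3 (-0.44, adjusted p = 0.0445), Agxt2 (-0.42, adjusted p = 0.00335), Tubb6 (-0.40, adjusted p = 0.0163), Apoc2 (-0.39, adjusted p = 0.00144) and Nnmt (-0.31, adjusted p = 0.0385). The differences of Slc7a11 (-0.62, adjusted p = 0.0163), Slc7a1 (-0.50, adjusted p = 0.0318) and Epcam (-0.31, adjusted p = 0.042) were also below 0. The 30 genes picked by the size of their change at 48 h share that value with this difference, which therefore favours them. The same holds for list members named by their adjusted p at 48 h, so 40 of 298 is no result about the named genes.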

How the results depend on the processing

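Of 287 genes called and named, 239 stayed called in the same direction under all 21 alternatives and 48 lost the call in at least 1, 25 of them with arrays centred on their medians. Centring gave 1246 genes higher, against 1932 as scaled by the authors, and 58 effects that differed between 48 h and 24 h, against 169, and array weights gave 261 of these. Leaving out 1 culture at a time gave 3110 to 3207 genes called, 1738 to 1815 higher and 1368 to 1418 lower, with 124 to 154 effects that differed with time and 2623 to 2922 genes called between 100 uM and 3 uM. A fit of the 10 arrays alone, without the spread of the other groups, called 3860 genes, 2209 higher and 1651 lower. Atf4, not called, turned to -0.0328 after centring (adjusted p = 0.846), and Cyb5b turned to -0.0757 when its probe sets were averaged (adjusted p = 0.338); the cause was not tested. Abcc4 lost its call under 10 alternatives, Ctsh under 12, Rpa3 under 7, Des under 6 and Rpa1 and Dgat2 under 4 each, and Egfr, Lmna, Rora, Smad5, Clock and Csnk1d when probe sets were averaged. Of 67 called and named genes with another probe set past the signal filter, 28 had all their others called in the same direction, 37 had at least 1 that was not called, and Clock, Csnk1d and Cyb5b had 1 called in the opposite direction. Among the 37, another probe set not called gave 0.24 for Mrto4, 0.17 for Onecut1 and -0.48 for Sox4. Hlf had 1 at 0.07 that was not called and 1 at -1.05 that was. The median of the amino acid and peptide transporter list, 0.04, changed sign with centring (-0.01) and quantile normalization (-0.01), and that of polyamines and the methyl cycle, -0.01, with quantile normalization (0.01). The titles give each of the 30 arrays a serial number and name no replicate or run. Replicate numbers were assigned here by that order, 6 consecutive arrays to a replicate, and are not known to mark shared animals or days. With these sets of 6 arrays, 1 of each group, as a block, 3380 genes were called, 1903 higher and 1477 lower. Deviations from the group means of same-numbered 100 uM and DMSO cultures correlated at -0.062 to 0.00 over genes, and none of the 5 cultures of 100 uM correlated best with its own number, so the numbers were not taken to pair the cultures. The deposited signals carry no detection call, so signal over background could not be judged probe by probe: of the 2556 dimmest genes 11.7% were called and of the 2556 brightest 51.5%.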

Other observations

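In other gene groups members changed in both directions; over all genes 18.9% rose and 14.5% fell. Among 33 genes of phospholipid synthesis and trafficking 8 rose and 6 fell, with Sgms1, a sphingomyelin synthase, at 0.63 ± 0.085 (adjusted p = 3.72e-07) and Chpt1, which makes phosphatidylcholine, at -0.45 ± 0.058 (adjusted p = 2.07e-07). In the polyamine and methyl cycle list 4 of 16 rose, Azin1, spermine synthase Sms (0.56 ± 0.11), spermine oxidase Smox (0.81 ± 0.20) and Mat2b (0.23 ± 0.058), not called after median centring (adjusted p = 0.0967), and 2 fell, Pemt and Ahcy (-0.63 ± 0.054, adjusted p = 2.12e-11), the hydrolase of S-adenosylhomocysteine. Genes of peroxide and superoxide defence fell in 8 of 23 cases and rose in 2, Glrx3 (0.30 ± 0.076) and Gpx8 (0.62 ± 0.14), with Selenop, the selenium carrier of plasma, at -0.53 ± 0.068 (adjusted p = 1.43e-07) and the methionine sulfoxide reductase Msrb2 at -0.59 ± 0.098. Heme genes fell in 5 of 17 cases, including the first enzyme of synthesis, Alas1 (-0.49 ± 0.082, adjusted p = 1.38e-05), and Cpox (-0.27 ± 0.045), Alad (-0.39 ± 0.12) and Hebp1 (-0.27 ± 0.062), while Hmox1 was the 1 increase.

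Clock genes rose in 4 of 18 cases and fell in 2, near the shares of all genes. The increases were Nampt (0.29 ± 0.076), not called after median centring (adjusted p = 0.0556), Rora, and Clock (0.35 ± 0.086) and Csnk1d (0.25 ± 0.06), both of uncertain direction since other probe sets were called at -0.89 and -0.29, and the decreases were Npas2 (-0.83 ± 0.13, adjusted p = 3.39e-06) and the output factor Hlf (-0.58 ± 0.09, adjusted p = 4.22e-06). Amino acid and peptide transporters rose in 6 of 23 cases and fell in 5, with the taurine transporter Slc6a6 at 0.80 ± 0.11 (adjusted p = 4.11e-07) and Slc6a13 at -0.93 ± 0.15 (adjusted p = 7.48e-06). The other decreases were Slc43a1 (-0.50 ± 0.12), Slc7a1 (-0.31 ± 0.089), the cystine exchanger Slc7a11 (-0.36 ± 0.10) and Slc38a3 (-0.32 ± 0.12), not called under 7 of 21 alternatives and at -0.19 without replicate 2 of 100 uM (adjusted p = 0.211). The increases of the TGF-beta and matrix list were Tgif1 (0.46 ± 0.073), Timp1 (0.58 ± 0.17) and Smad2 (0.35 ± 0.13), the last not called under 7 of 21 alternatives. Of 5 tested markers of sinusoidal endothelium Esam and Fcgr2b (0.40 ± 0.15, adjusted p = 0.0458) rose, but Fcgr2b was not called under quantile normalization (adjusted p = 0.056), and of 6 tested cholangiocyte markers Krt19, Sctr (-1.49 ± 0.42), Ggt1 (-0.44 ± 0.12) and Epcam (-0.15 ± 0.057, not called under 8 alternatives) fell. The motif TGACGTCA, which is its own reverse complement and is bound by CREB and ATF factors, was in 17 of the 305 promoters of genes at least 1.5-fold higher (5.57%), in 5 of the 415 of those at least 1.5-fold lower (1.20%) and in 3.01% of the promoters of all tested genes. Of 38 promoters of the ATF4 and integrated stress response list, for which it was searched, 1 held it (2.63%). Of 4025 probe sets past the signal filter that lack a single gene symbol, 339 were called higher and 521 lower, and these changes have no gene name here.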
